A study of Caenorhabditis elegans with 2 samples.

Results

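The genes described are 10 genes for P granule and germline RNA-binding proteins, taken by name from the annotation of 19973 protein-coding genes of the worm Caenorhabditis elegans. They are pgl-1, pgl-3, glh-1, glh-4, deps-1, car-1, cgh-1, gld-1, prg-1 and csr-1, and all 10 names matched a gene. Each was searched for binding of LSY-2, a zinc finger transcription factor, in ChIP-seq peak lists from whole animals at the fourth larval stage (L4). The series is 1 group of 2 biological replicates of strain OP367, whose genotype is unc-119(tm4063) III; wgIs367. Both replicates carry LSY-2 with GFP-FLAG at its C-terminus from a stable transgenic line, a single line, and both are pools of males and females. The labels name LSY-2 as the antibody target and do not say whether the protein or its tag was recognised. Whole animals were used, so germline and somatic nuclei were not measured apart, and the control experiment that the labels name was not analysed here. A member was given a peak when the summit, the highest point of the peak, lay inside the gene or within 2000 bp upstream of the 5′ end of any of its transcripts.

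P granules are RNA and protein condensates that sit at the nuclear pores of germ cells and are inherited by the germline founder cells of the embryo. PGL proteins form their scaffold, GLH proteins are helicases related to Vasa, and Argonaute proteins such as PRG-1 and CSR-1 use small RNAs there to sort germline transcripts from foreign ones. RNA-binding proteins such as GLD-1, CGH-1 and CAR-1 repress or protect maternal mRNAs in the gonad, and relatives of the latter pair also act in the somatic processing bodies (P bodies) that hold repressed mRNAs.

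LSY-2 peaks lay at cgh-1, car-1 and the Argonaute gene csr-1 in the authors' list cut at an irreproducible discovery rate (IDR), the thresholded list. None lay at the PGL scaffold and GLH helicase genes in the set, at deps-1, at gld-1 or at the other Argonaute gene, prg-1. That is 3 of the 10 genes with a summit (30.0%), against 25.9% of all protein-coding genes under the same rule. The share is near the background. These 3 genes held 4 summits, 2 of them upstream of cgh-1. All 3 also had a summit in a narrower promoter window, from 1000 bp upstream to 200 bp downstream of a 5′ end, where the share over all protein-coding genes was 19.5%. The strongest summits of these 3 genes had a median signal of 120, against 168 over the 5169 protein-coding genes with a summit. Signal is the value the authors deposited for each peak; the sources used here do not give its scale, and it is read within a list only. The thresholded list held 5944 peaks with signals from 59.9 to 19064 and a median of 115. It was made over both replicates, and each replicate and the pooled replicates also had a list of 30000 peaks and background regions. No read counts come with the lists, so library depth is unknown.

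The sequences at 3 of the 4 thresholded summits are shown because they are the bound stretches assigned to cgh-1 and csr-1. Each is on the plus strand of WBcel235 (ce11), 5′ to 3′, and centred on the summit. Capitals mark GAGAGA on either strand, a word searched because earlier results of these data reported it at LSY-2 summits. The summit upstream of cgh-1 has 200 bases at III:7498524-7498723, and the word stands 96 bp from its summit. The other summit has 100 bases at III:7499625-7499724, chosen shorter to stop before the first exon of sap-140. The summit inside csr-1 has 200 bases at IV:7958291-7958490, and the word stands 6 bp from its summit. GAGAGA was present within the 100 bp centred on 25.7% of all 5944 thresholded summits, and on 1 of these 4, that of csr-1. In 200 bp the share was 39.0%, and the nearer cgh-1 summit also held it. The car-1 summit, whose sequence is not shown, and the farther cgh-1 summit held the word in neither window. A match describes the letters only.
cgh-1, nearer summit: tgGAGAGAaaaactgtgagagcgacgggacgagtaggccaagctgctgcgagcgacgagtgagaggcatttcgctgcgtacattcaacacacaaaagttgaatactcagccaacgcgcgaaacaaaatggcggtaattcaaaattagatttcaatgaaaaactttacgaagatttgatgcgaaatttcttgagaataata
cgh-1, farther summit: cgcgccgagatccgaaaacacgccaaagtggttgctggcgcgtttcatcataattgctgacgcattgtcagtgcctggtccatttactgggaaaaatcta
csr-1, internal summit: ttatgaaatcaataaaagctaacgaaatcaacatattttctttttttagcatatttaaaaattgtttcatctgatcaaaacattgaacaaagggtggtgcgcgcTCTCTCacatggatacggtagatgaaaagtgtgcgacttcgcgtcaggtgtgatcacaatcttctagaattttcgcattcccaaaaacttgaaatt

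The strongest binding was at cgh-1, which encodes a DEAD-box helicase of the DDX6 family that stabilises stored mRNAs in the gonad. The gene (WBGene00000479, III:7495320-7497832, minus strand) had a summit 792 bp upstream of its 5′ end with a signal of 410. It ranked 535 of the 5944 thresholded peaks and was above 91.0% of them. Replicate 1 gave this summit a signal of 250 and rank 515, and replicate 2 a signal of 161 and rank 607, and the replicates placed it 7 bp apart. Another summit lay 1843 bp upstream, with a signal of 384 and rank 587. Replicate 1 gave it 231 and replicate 2 gave it 159. Within each replicate the cgh-1 summits were close to each other in signal, and they ranked among the strongest 621 peaks of each replicate.

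Neither cgh-1 summit belongs to cgh-1 alone. The farther one is 63 bp upstream of the 5′ end of sap-140, on the opposite strand, and 204 bp upstream of C07H6.9, so it sits between those genes' divergent 5′ ends. The nearer one lies in the 915 bp between cgh-1 and the 3′ end of C07H6.9, a gene on the same strand. The closest annotated 5′ end to it is that of a shorter C07H6.9 transcript, which starts 714 bp away and is transcribed towards the summit. It also falls 1114 bp upstream of sap-140 and 1970 bp upstream of C07H6.10, a small nucleolar RNA gene inside cgh-1. With each summit left to whichever gene starts closest to it, cgh-1 had none. A further 3 summits of the pooled list lay at cgh-1, all outside the thresholded list, with signals of 24.9 in a coding exon, 19.1 in the 3′ untranslated region and 15.5 at 162 bp upstream of the 5′ end. The last of these, directly before the gene, ranked 22375 of 30000, and replicate 2 listed no summit there.

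The gene car-1 encodes an LSM14-family RNA-binding protein that binds CGH-1 in germline mRNA particles. It (WBGene00012484, I:12904470-12906040, plus strand) had 1 thresholded summit, 380 bp upstream of its 5′ end, with a signal of 120 and rank 2848. The signal was 72.1 in replicate 1 (rank 2900) and 55.1 in replicate 2 (rank 2685). The replicates placed the summit 59 bp apart, at 362 bp and 421 bp upstream. Both replicates ranked it near the middle of their strongest 5944, and its rank of 2848 was near the middle of the thresholded list. The 1020 bp upstream of car-1 separate it from coa-5, named for cytochrome c oxidase assembly, on the opposite strand. The summit was 641 bp upstream of coa-5 and so is shared, with car-1 the nearer. Other summits in the car-1 window were weak: the next in the pooled list had a signal of 25.0 and rank 14757, in the 3′ untranslated region of pad-1.

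The gene csr-1 encodes the Argonaute that binds small RNAs antisense to germline-expressed transcripts. It (WBGene00017641, IV:7957267-7962157, plus strand) had 1 thresholded summit, with a signal of 79.3 and rank 4435, above 25.4% of thresholded peaks. The summit was in an intron of the longer csr-1 transcripts, 222 bp upstream of the 5′ end of the short transcript that starts inside the gene. The same base is in an intron of frpr-10, a neuropeptide receptor gene that overlaps csr-1 on the same strand, 587 bp after its 5′ end. Replicate 1 gave a signal of 38.0 and rank 6120, and replicate 2 a signal of 41.7 and rank 3803. The summit is thus outside the strongest 5944 of replicate 1 and inside those of replicate 2. Before the outermost 5′ end of csr-1, the pooled list had a summit at 281 bp upstream, with a signal of 25.5 and rank 14489. That one was at rank 29795 in replicate 1 and rank 9078 in replicate 2. It is shared with frpr-10, 818 bp upstream of its 5′ end, and with the homeobox gene ceh-19 on the other side of the gap, 1037 bp upstream.

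**Figure D1:**
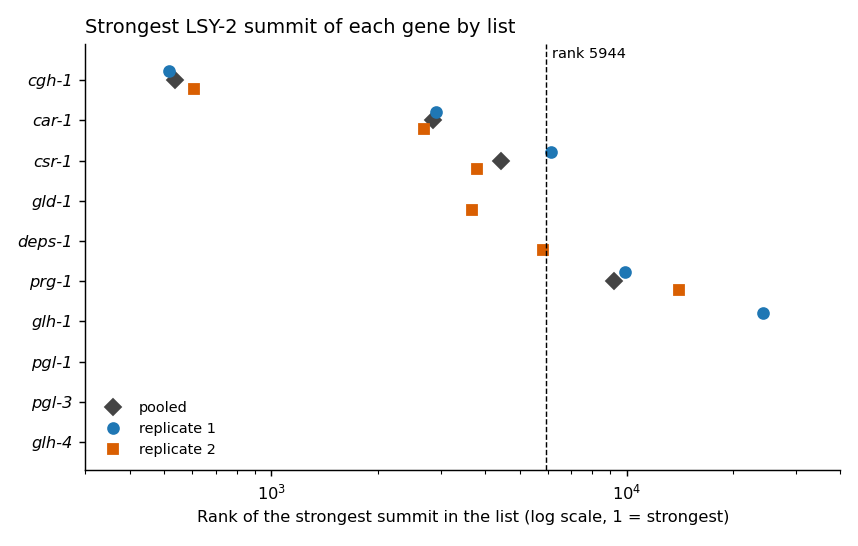
Rank of the strongest summit of each gene (x axis, log scale, 1 is the strongest) in the pooled list (diamonds), replicate 1 (circles) and replicate 2 (squares), with genes as rows; the dashed line is rank 5944, and a missing symbol means no summit in that list. The ranks of cgh-1 lie between 515 and 607 and those of car-1 between 2685 and 2900, gld-1 and deps-1 have a square only, and pgl-1, pgl-3 and glh-4 have no symbol.

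The order cgh-1, car-1, csr-1 held in both replicates. At the 4 summits the log2 signal of replicate 1 minus replicate 2 was 0.63 and 0.53 at cgh-1, 0.39 at car-1 and -0.14 at csr-1. Over the 5823 thresholded peaks matched in both replicates the median was 0.50, with an SD of 0.57 between peaks, which corresponds to a 1.42-fold higher value in replicate 1. The cgh-1 and car-1 summits were within 0.13 of that median, and the csr-1 summit differed from it by -0.64, just over 1 SD. With 1 group of 2 replicates there is no test of a difference, and these values describe the libraries.

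**Figure D2:**
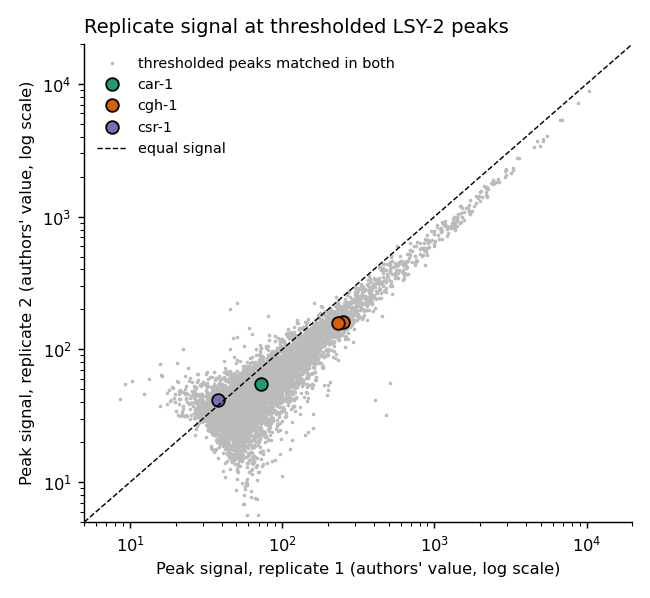
Signal of each thresholded peak in replicate 1 (x axis) and replicate 2 (y axis), both in the authors' units on log scales; grey points are the 5823 peaks matched in both, coloured points the summits at cgh-1, car-1 and csr-1, and the dashed line equal signal. The cgh-1 points (250 and 231 in replicate 1) and the car-1 point lie inside the main band under the line, and the csr-1 point (38.0 and 41.7) lies just above the line.

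The other 7 genes had no thresholded summit, but gld-1 and deps-1 had peaks that only replicate 2 listed. The gene gld-1 encodes a KH-domain translational repressor that drives germ cells into meiosis (WBGene00001595, I:7695681-7698222, plus strand). Replicate 2 placed a summit 264 bp upstream of its 5′ end with a signal of 42.9, rank 3681 and a −log10 q-value of 4.28. The next summit of replicate 2 was 1187 bp upstream, in an intron of T23G11.4, with a signal of 23.2 and rank 7593. It had the same q-value, which is the highest that list gives and is not limited to its top ranks. Replicate 1 listed no summit in the gld-1 window, and its nearest one was 5672 bp from the replicate 2 summit. The nearest pooled summit was 5678 bp away.

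The gene deps-1 encodes a P granule protein that promotes the assembly of the granules (WBGene00022034, I:506473-509056, plus strand). Replicate 2 placed a summit 114 bp upstream of its 5′ end, with a signal of 29.1, rank 5811 and a −log10 q-value of 4.28. It is shared with Y65B4BL.4, whose 5′ end on the opposite strand is 109 bp away across a gap of 222 bp. The nearest replicate 1 summit was 3671 bp away. Among the strongest 5944 peaks of replicate 2, 395 (6.65%) had no replicate 1 summit within 200 bp, and 215 (3.62%) had neither a replicate 1 nor a pooled summit. The gld-1 and deps-1 peaks are in both counts. In replicate 1 the matching shares were 4.93% and 1.46%, and no member was among them. With the strongest 5944 peaks of replicate 2 alone, 5 of the 10 genes had a summit, and with those of replicate 1 alone 2 had one, cgh-1 and car-1. The share over all protein-coding genes was 26.2% for either replicate alone. Which replicate is closer to the binding at gld-1 and deps-1 was not tested.

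The gene prg-1 encodes the Piwi Argonaute of the piRNA pathway, which silences foreign transcripts (WBGene00004178, I:7585329-7588367, minus strand). Both replicates and the pooled list placed a summit at the same base, 208 bp upstream of prg-1, below the threshold. Its signal was 38.7 in the pooled list (rank 9434), 23.2 in replicate 1 (rank 10473) and 13.6 in replicate 2 (rank 14183). The summit is 5 bp before the 5′ end of D2030.7 on the opposite strand, across a gap of 212 bp. A second pooled summit, with a signal of 39.7 and rank 9193, was in a coding exon of prg-1, 2768 bp after the 5′ end. Replicate 1 placed the exon summit 2833 bp after the 5′ end (rank 9926) and replicate 2 placed it 2783 bp after (rank 14060). The upstream summit was thus at 1 place in all these lists, the exon summit shifted between them, and both were weak in rank.

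Of the Vasa-related helicase genes, glh-1 (WBGene00001598, I:6854478-6857536, plus strand) had 1 summit in replicate 1 only. It was 248 bp after the 5′ end, in the 5′ untranslated region, with a signal of 9.09, rank 24192 and a −log10 q-value of 0.667. The gene glh-4 (WBGene00001601, I:3727027-3731179, plus strand) had no summit in any of the 4 lists. A thresholded summit stood 2223 bp upstream of glh-4, just outside the reach of 2000 bp, whereas the farthest summit taken in, at cgh-1, was 1843 bp upstream. The outside summit had a signal of 76.9 and rank 4606, with ranks 5017 and 5303 in replicates 1 and 2. It lay in the 5869 bp between glh-4 and lin-59, which encodes a histone methyltransferase.

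The scaffold genes pgl-1 (WBGene00003992, IV:6974441-6977318, minus strand) and pgl-3 (WBGene00003994, V:4755979-4758587, plus strand) had no summit in any of the 4 lists. The thresholded summit nearest to pgl-1 was 17597 bp downstream of its 5′ end, in an intron of jnk-1, with a signal of 65.7. That nearest to pgl-3 was 24435 bp upstream, with a signal of 123. For the other genes without one, the nearest thresholded summit was 4402 bp from the 5′ end of glh-1, 5414 bp from gld-1, 6424 bp from prg-1 and 10264 bp from deps-1. Having no summit in any list is common: it held for 3 of the 10 genes (30.0%) and for 51.5% of all protein-coding genes.

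Whether reads could be placed in these windows was checked by the share of 36-base words that occur once in the genome. The share was 100% for pgl-1, car-1, cgh-1, gld-1 and csr-1, 99.7% for prg-1 and 97.6% for pgl-3. It was 90.5% for glh-1 and for deps-1, and 50.6% for glh-4. The sources used here do not give the read length. Whether the repeated part of the glh-4 window bears on its lack of summits was not tested.

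**Figure D3:**
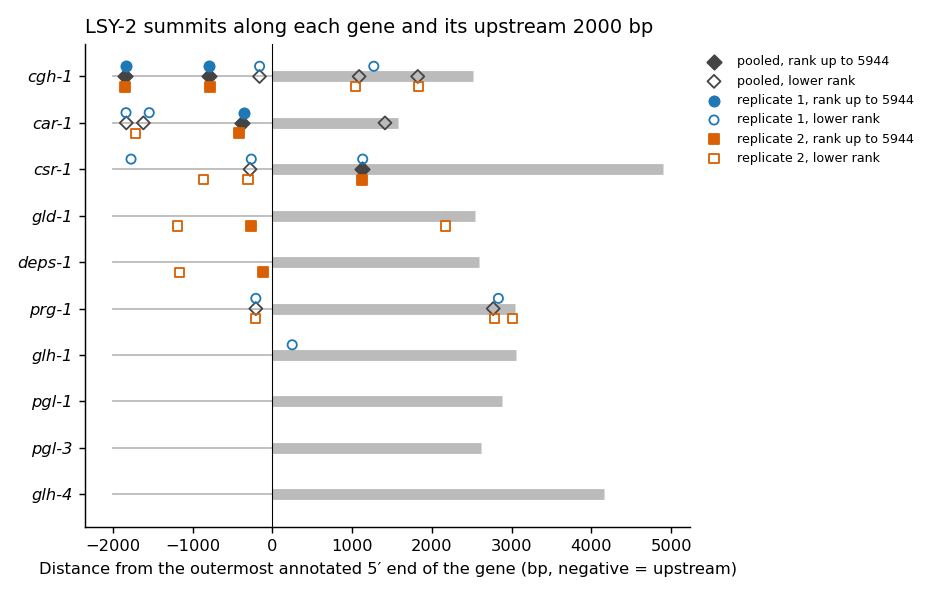
Positions of all summits in the windows of the 10 genes, by distance in bp from the outermost annotated 5′ end (x axis), in the pooled list (diamonds) and replicates 1 (circles) and 2 (squares); filled symbols rank within the strongest 5944 of their list, thick grey bars are the genes and thin lines the upstream 2000 bp. Filled symbols of all 3 lists coincide at cgh-1 and car-1, csr-1 has a filled diamond and square with an open circle (rank 6120) inside the gene, and the filled squares of gld-1 and deps-1 stand alone 264 bp and 114 bp upstream.

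Over the longer lists the 10 genes were close to the background as well. In the pooled list 4 of the 10 had a summit in the window, against 42.6% of all protein-coding genes. In the list of replicate 1 the count was 5, against 43.7%, and in that of replicate 2 it was 6, against 45.5%. The windows of the 10 genes had a median length of 4743 bp and those of all protein-coding genes 4027 bp.

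The room upstream of the 10 genes was compared with a split at 600 bp, chosen after the values were seen. The next protein-coding gene upstream was 915 bp from cgh-1, 1020 bp from car-1 and 1317 bp from csr-1. It was 189 bp from pgl-1 (the meiotic gene him-3), 212 bp from prg-1, 222 bp from deps-1, 337 bp from glh-1 (the helicase gene sacy-1), 448 bp from gld-1 and 525 bp from pgl-3 (the linker histone gene hil-4). The gene glh-4, also without a thresholded summit, had the widest gap of the 10, 5869 bp, so the genes with and without a summit overlap in this distance. Thus 0 of the 6 genes with under 600 bp upstream had a thresholded summit, and 3 of the 4 with more did. Over all protein-coding genes the order was the opposite, with 31.4% of 7596 genes under 600 bp and 22.5% of 12372 genes at or above it. The summit counted for csr-1 lay inside the gene, 1124 bp after its outermost 5′ end, and not in the gap upstream. The farther cgh-1 summit, 1843 bp upstream, lay beyond the gap of 915 bp. With 10 genes, and the split made from them, the comparison is a description only.

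**Figure D4:**
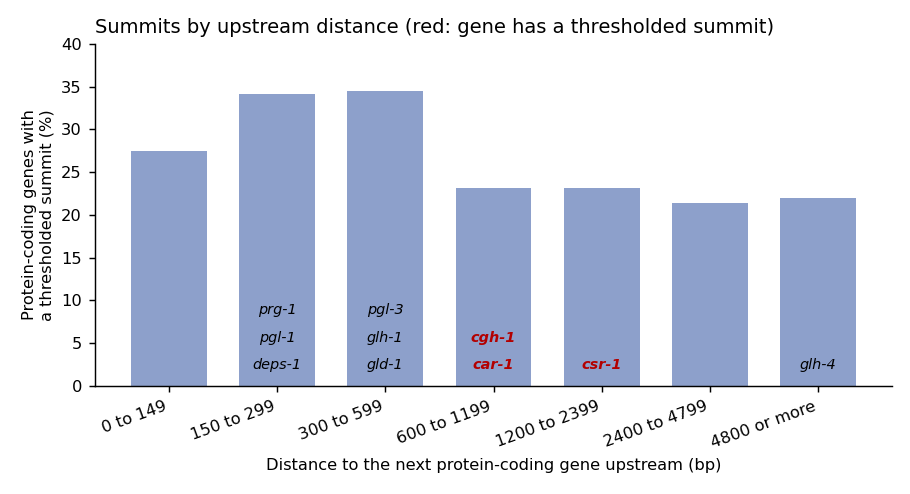
Percentage of all protein-coding genes with a thresholded summit in the gene or 2000 bp upstream (bars, y axis from 0) by distance in bp to the next protein-coding gene upstream (x axis), with the 10 genes written in the bar of their class. The 3 genes in red have a thresholded summit and stand in the classes that start at 600 bp and 1200 bp, while the highest bars, 34.2% and 34.5%, are the classes between 150 bp and 600 bp, whose 6 genes have none; glh-4, with none, stands in the class from 4800 bp.

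The same rule was applied to 4 longer lists of related genes, named from general knowledge but with earlier results of these data known. Their shares stand beside the same background of 25.9% and the median signal of 168, and no list was tested. Values in brackets are the signal of the strongest summit. Of 12 other P granule components and assembly factors, 3 had a thresholded summit (25.0%). They were pptr-1, a phosphatase subunit needed for granule segregation (277), pgl-2 (125) and the kinase gene mbk-2 (83.6). The pgl-2 summit was uneven between the replicates, with 96.0 (rank 2096) in replicate 1 and 24.6 (rank 7106) in replicate 2. With pgl-2, 1 of the 3 PGL genes had a thresholded summit, and 0 of the 4 GLH genes and 0 of the 4 genes of the MEG family of intrinsically disordered proteins did. The counts of the scaffold, helicase and MEG families cover few genes, and none was tested.

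Of 29 germline translational regulators, the functional relatives of gld-1, 10 had a summit (34.5%), with a median signal of 231 at the strongest. They were led by nos-3, a Nanos-related gene (2766, shared with Y53C12B.1), larp-1 (1065, shared with wip-1) and the Bicaudal-C gene gld-3 (676, shared with T07F8.4). The others were mex-1 (525), lin-41 (250), spn-4 (213), rnp-8 (154), gls-1 (132), fog-1 (117) and oma-2 (78.8). Of these 10 strongest summits, 6 (60.0%) are shared with another protein-coding gene, near the 58.8% of the 5169 genes with a summit. Both FBF genes, which encode Pumilio proteins that repress gld-1 mRNA, had none.

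The mRNP and P-body list, to which the products of cgh-1 and car-1 are related, had the highest share, 14 of 17 (82.4%), with a median signal of 267. Its strongest summits were at ifet-1, whose product associates with CGH-1 and CAR-1 (8987, shared with the ribosomal gene rps-1), the cap-binding gene ife-3 (1367) and lsm-1 (1247, shared with rps-9). The decapping genes dcap-1, dcap-2, edc-3 and edc-4 had signals of 134, 85.9, 72.9 and 344, and patr-1 had 297. The remaining 6 were atx-2 (488), lsm-3 (348), ccf-1 (236), cey-1 (202), cey-2 (132) and cey-4 (103). The 3 without one were ife-1, cey-3 and xrn-1. At 10 of the 14 (71.4%) the strongest summit is shared with another protein-coding gene, against 58.8% of the 5169 genes with a summit.

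Of 35 genes of germline small RNA pathways, in which prg-1 and csr-1 also act, 17 had a summit (48.6%), with a median signal of 275. Among genes that act with csr-1, ekl-1 had 655 (shared with prpf-4) and the nucleotidyltransferase gene cid-1 439 (shared with K10D2.5, emb-1 and prp-19). The RNA-dependent RNA polymerase gene ego-1 had 123, while the helicase gene drh-3 had none. Among genes of the piRNA pathway, tofu-6 had 414, tost-1 170 and tofu-5 158, while henn-1, parn-1, pid-1, prde-1, tofu-4, erh-2 and snpc-4 had none. In the mutator complex, which amplifies small RNAs, mut-15 had 1131 (shared with the ribosomal gene rps-16 and fib-1), rde-2 392, rde-8 322, mut-7 275, mut-2 218 and mut-16 111, while mut-14 had none. The remaining summits were at simr-1 (626), wago-4 (314), znfx-1 (167), rde-10 (146) and rde-12 (128). Of these 17 strongest summits, 13 (76.5%) are shared with another protein-coding gene, against 58.8% of the 5169 genes with a summit. In the promoter window 15 of the 35 genes had a summit (42.9%), and cid-1 and znfx-1 had none there.

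**Figure D5:**
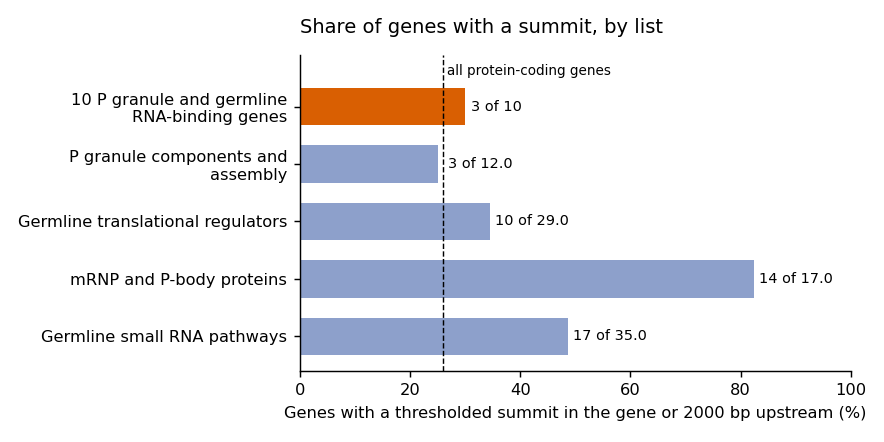
Percentage of genes with a thresholded summit in the gene or 2000 bp upstream (x axis from 0) for the 10 genes and 4 lists of related genes, with counts beside the bars; the dashed line is the 25.9% of all protein-coding genes. The 10 genes (3 of 10) and the P granule list (3 of 12) lie near the line, and the mRNP and P-body list (14 of 17) is the longest bar. The lists were chosen with earlier results of these data known, and none was tested.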

How the data were processed

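The authors deposited peak lists in the ce11 build for each of the 2 replicates, for the pooled replicates, and an IDR-thresholded list over both, made with a control alignment per the deposited notes. The sources used here do not give the aligner, peak caller, IDR threshold or read length. Column 7 of the deposited lists was used as peak signal and for ranks, column 9 as the −log10 q-value (at most 4.30 in replicate 1, 4.28 in replicate 2 and 4.20 pooled), and column 2 plus column 10 as the summit. The thresholded signals are those of the pooled list. The 4 ce10 lists were not used.

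Summits were assigned to genes of Ensembl release 115 (WBcel235) in Python 3.11.15 with numpy 2.4.6 and pandas 2.3.3, and the figures drawn with matplotlib 3.10.9. The assignment was tested on simulated data. Replicate summits were matched within 200 bp. Sequences came from the RefSeq WBcel235 genome. The 10 genes, the related lists and the words searched were chosen with earlier results of these data known. All 10 genes and every summit of the thresholded list at them are named, and each related gene with a summit. Of 95 related names 93 matched, and ntl-1 and prg-2 did not. The word length of 36 bases and the split at 600 bp were chosen after seeing the data. Alternatives were the upstream reach, the thresholded peaks above their median signal, the whole peak interval, the nearest 5′ end only, the matching distance, the summit window and each replicate left out. With 1 group, no test was run, and depth is unknown.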

Additional observations from a re-analysis of the deposited data

How the results depend on the processing

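The count of 3 genes with a thresholded summit stayed at 3 with 1000 bp upstream (22.0% of all genes) and with the whole peak interval (27.0%). It was 2 with 500 bp upstream (19.3%), with only the peaks above the median signal (17.7%) and with the nearest 5′ end only (18.5%). Leaving out a replicate, by taking the strongest 5944 peaks of the other, gave 2 to 5 genes in the wide window (26.2% of all genes with either replicate) and 2 to 5 in the promoter window (19.7%). Without replicate 1 the count was 5, by adding gld-1 and deps-1, and without replicate 2 it was 2, with csr-1 lost. The 4 summits became 2 with 500 bp upstream and 2 with the nearest 5′ end only, as both cgh-1 summits are farther than 500 bp and nearer to other 5′ ends. The median signal of 120 was 99.6 in those same settings, 265 with only the peaks above the median signal, and 42.9 to 161 with a replicate left out, where the signal is that of the single list. Of the 93 related genes 44 had a thresholded summit, and shares over all genes again stand in brackets (25.9%). The count was 38 with 1000 bp upstream (22.0%), 32 with 500 bp (19.3%) and 45 with the whole peak interval (27.0%). It was 38 with only the peaks above the median signal (17.7%) and 28 with the nearest 5′ end only (18.5%). With a replicate left out it ranged from 43 to 46 (26.2%). The count of summits ranged from 3 to 6 with a replicate left out, and that of summits with a word rose from 1 to 2 in 200 bp. No paired analysis was possible because the series has 1 group and no comparison between groups. The read depth is unknown, so the precision of each signal cannot be given.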

Other observations

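The promoters of the 10 genes, 250 bp before to 50 bp after the outermost 5′ end, held none of the 4 words searched on both strands. GAGAGA stood in 21.8% of all 19973 promoters of that length and CGTCTC in 11.2%. The word AGACGCAG stood in 3.54% and the word GCAAACAC in 2.40%. In the 100 bp centred on the summit, AGACGCAG was present at 9.30% of the 5944 thresholded peaks, CGTCTC at 15.6% and GCAAACAC at 4.91%. Each was at 0 of the 4 summits of cgh-1, car-1 and csr-1. The words can overlap, and any of them was at 38.5% of summits. The absence of these letters says nothing of the factor. The GC content of the 100 bp at the summits lay between 41.0% (csr-1) and 52.0% (car-1) at the 4 summits, against 43.6% ± 7.95 (SD over 5944 summits).

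The nearest thresholded summit to gld-1 outside its window was strong in both replicates. It lay 5414 bp downstream of the 5′ end, intergenic, with a signal of 346 and rank 688, and with 173 and 174 in replicates 1 and 2. That nearest to deps-1, in an intron of acs-13, had 67.8 in replicate 1 and 13.4 in replicate 2, ranks 3134 and 14374.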
